A study of Mus musculus with 4 samples.

Results

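The genes described here are ion exchangers and cotransporters of the solute carrier families Slc4, Slc8, Slc9, Slc12, Slc24 and Slc26. The rule took every array gene with a symbol of these 6 families except Slc12a2, and they number 47 of the 36163 genes on the array. Each gene is represented by the probe with the highest mean log2 signal over the 4 arrays. RNA was measured in stem cells (2 arrays) and in non-stem cell epithelia (2 arrays), both obtained from C57BL/6 mouse submandibular glands by flow sorting. The mice were 8 to 10 weeks old, and the labels name no treatment or altered gene. No label gives the surface markers of the sort, and nothing in the labels says that replicates came from separate animals or sorts. The p-values therefore reflect how these 4 samples scatter, and that scatter may be purely technical.

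These membrane proteins move chloride, bicarbonate, protons, sodium, potassium and calcium by coupling one ion to another. In salivary glands, secretory acinar cells take up chloride across the basolateral membrane and release it into the lumen, with water following. Chloride enters partly through chloride-bicarbonate exchangers of the Slc4 family, which work beside sodium-hydrogen exchangers of the Slc9 family that remove the acid left behind. Duct cells then reabsorb sodium and chloride and add bicarbonate, for which they use apical Slc9 and Slc26 exchangers. Potassium-chloride cotransporters of the Slc12 family let cells lose salt and shrink, and Slc8 and Slc24 exchangers carry calcium out of the cytosol in exchange for sodium.

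On the stem cell arrays 35.7% and 39.0% of spots were well above background, against 42.3% and 41.9% on the non-stem arrays, and no spot was saturated. Each array was scaled to the 75th percentile of its signal, which was 30.4 and 43.3 for stem cells, against 74.8 and 63.0 for non-stem cell epithelia. Across genes the correlation was 0.986 within the stem cell pair, 0.992 within the non-stem pair and 0.923 to 0.935 between groups. By limma, 6 of 11 tested basal duct and myoepithelial markers were higher in stem cells and 0 lower, and 10 of 19 granular tubule and other duct markers were higher and 1 lower. Of 14 acinar markers 0 were higher and 8 lower. Of 11 endothelial markers 7 were tested, and 5 were higher and 0 lower. Of these 5, Cd34 and Ramp2 were well above background on the stem cell arrays alone and so were tested only through the group where they were high. Pecam1 lay lower without passing (-0.51 ± 0.40). The summed level of all 11, in multiples of each array's 75th percentile, was 30.91 and 30.33 in stem cells, against 12.02 and 13.12 in non-stem cell epithelia. Ly6c1 and Kdr had the highest signals in stem cells, and Kdr did not pass. Of 6 tested leukocyte markers and 2 tested fibroblast markers, 1 of each was higher and 0 lower. Beside these counts, 14.2% of all genes tested were called higher and 16.8% lower. The part of these markers in the results was not tested.

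Of the 47 genes, 27 were well above background on at least 2 arrays and were tested, and 20 were well above background on no array. The tested genes changed in both directions, 5 higher and 6 lower in stem cells at an adjusted p under 0.05 (limma, with p-values adjusted by Benjamini-Hochberg across the whole tested set). Of the 6 lower genes, Slc4a1, Slc9a7 and Slc9a9 were well above background on the non-stem arrays alone and so were tested only through the group where they were high. With a filter that required all 4 arrays, 3 lower calls were left. Over all 17305 genes tested, 14.2% were called higher and 16.8% lower, or 31% in all. Among these 27 genes the shares were 18.5% higher and 22.2% lower, near those of all genes. The median log2 difference of the 27 genes, stem cells minus non-stem cell epithelia, was 0.01, against -0.01 over all genes tested. The 2 groups did not overlap for 11 genes with stem cells higher and 12 with stem cells lower, where 71% of all tested genes did not overlap, 34.7% higher and 36.3% lower. These directions are relative to each array's 75th percentile. Relative to the median of 10 spike-in controls, which stood 2.25 higher in stem cells on that scale, the 4 rises other than that of Slc12a4 would turn to lower, with values between -1.48 and -1.18. The middle of these families lay where that of all genes lay, and a few members moved far.

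**Figure D1:**
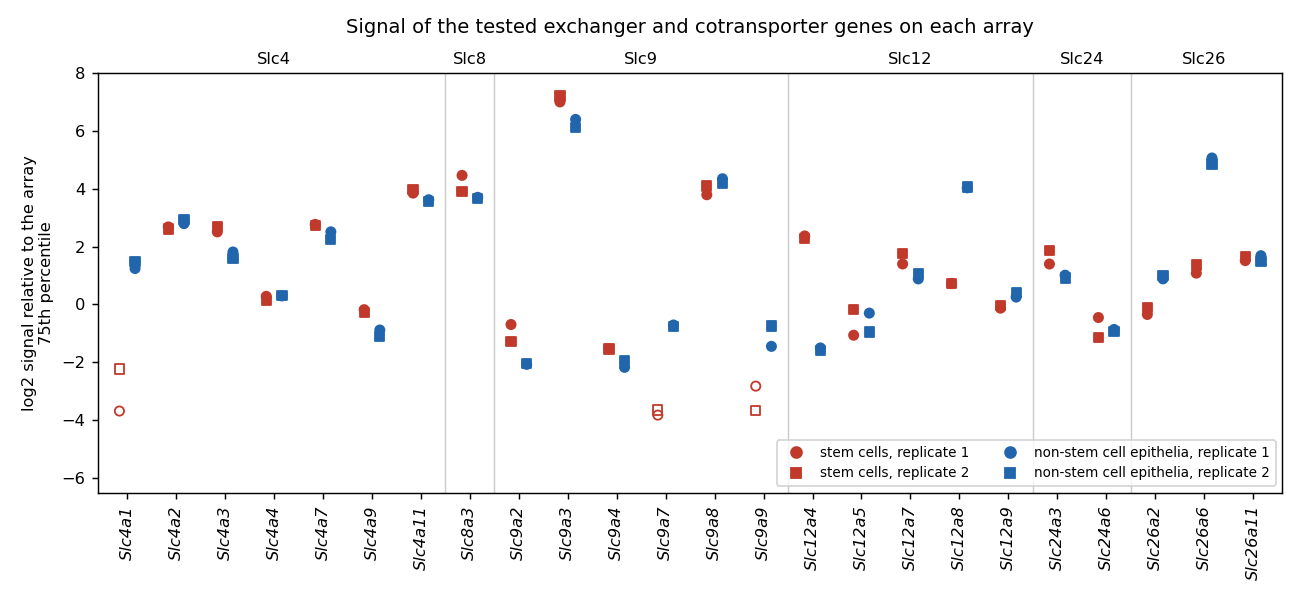
The plot gives the log2 signal of 24 of the 27 tested genes on each array (y axis, relative to the array's 75th percentile), with stem cells in red to the left of non-stem cell epithelia in blue; circles are replicate 1, squares replicate 2, and an open symbol marks a probe that was not well above background on that array. Slc12a4 is the gene whose red symbols stand farthest above the blue ones, and Slc4a1, Slc12a8 and Slc26a6 stand farthest below; heights of different genes come from different probes and are not comparable.

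Among the anion exchangers of the Slc26 family, Slc26a6 fell in stem cells and was the member with the largest change measured on all 4 arrays in the lower direction. It encodes an apical exchanger that trades chloride for bicarbonate or oxalate and is known from the ducts of the pancreas and from salivary gland. The log2 signal was 1.08 and 1.36 in stem cells, against 5.06 and 4.85 in non-stem cell epithelia. Every stem cell array lay below every non-stem array, by 3.73 ± 0.18 (SE, n = 2 arrays per group) on the log2 scale, a 13.3-fold lower level (adjusted p = 0.000288 by limma). The array carries 3 Slc26a6 probes, which are shown because each was read separately and all moved the same way. One lies at chr9:108763641-108763700 on mm9, and the others at chr9:108814756-108814815 and chr9:108815322-108815380, all on the plus strand. The last is the brightest, and its first 30 bases are given.
A_55_P2036407: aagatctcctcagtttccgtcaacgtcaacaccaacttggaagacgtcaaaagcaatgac
A_51_P313638: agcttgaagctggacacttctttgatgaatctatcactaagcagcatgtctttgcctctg
A_55_P2153743: ctgaaaaggagctgatgtgggaatacagct

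The log2 difference was -4.23 ± 0.37 for the first of these probes and -4.37 ± 0.37 for the second (SE, adjusted p = 0.00206 and 0.00177 by limma over 22642 tested probes). Each was well above background on 1 stem cell array and on both non-stem arrays. The result for Slc26a6 therefore did not rest on the choice of probe.

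Slc26a2, a sulfate transporter known for its role in cartilage, also fell. Its log2 signal was -0.35 and -0.11 in stem cells, against 0.88 and 1.00 in non-stem cell epithelia, a difference of -1.17 ± 0.17 or 2.25-fold lower (adjusted p = 0.00624). The groups did not overlap, but the call was lost without non-stem cell epithelia replicate 2 (log2 -1.11, adjusted p = 0.063). With normexp background correction, an alternative to the scanner's own, the difference was -0.67 and passed (adjusted p = 0.0031). Slc26a11, a sulfate and chloride transporter of intracellular membranes and the plasma membrane, stood at 1.51 and 1.67 in stem cells, against 1.68 and 1.49 in non-stem cell epithelia. Those arrays overlapped, and the log2 difference was 0.01 ± 0.17 (adjusted p = 0.98). Its probe is printed in 10 copies on each array and their mean was used. The other 7 members of the family, Slc26a1, Slc26a3, Slc26a4, Slc26a5, Slc26a7, Slc26a9 and Slc26a10, were well above background on no array. They include the gut exchanger gene Slc26a3, the inner ear and kidney exchanger gene Slc26a4, known as pendrin, and the motor protein gene of outer hair cells Slc26a5, known as prestin.

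In the Slc12 family of cation-chloride cotransporters, stem cells held more Slc12a4 and less Slc12a8, and the other 4 tested genes did not pass. Slc12a4 encodes KCC1, the potassium-chloride cotransporter found in most cells, which lets them release salt when swollen. Log2 signals were 2.37 and 2.29 in stem cells, against -1.50 and -1.60 in non-stem cell epithelia. Both stem cell arrays lay far above both others, by 3.88 ± 0.15 or 14.7-fold (adjusted p = 0.000179), the largest rise among the 27 genes tested. With normexp the difference was 1.98 and also passed. It has 1 probe, on chromosome 8 at 108467493 to 108467552 (mm9). Slc12a8 encodes a distant member of the family whose transported substance is debated, with nicotinamide mononucleotide reported in mouse. Its log2 signal was 0.72 and 0.71 in stem cells, against 4.03 and 4.06 in non-stem cell epithelia. The arrays of each group lay close together and the groups were apart by -3.33 ± 0.15, or 10.0-fold lower in stem cells (adjusted p = 0.000228). A second probe of Slc12a8 gave -3.77 ± 0.17 (adjusted p = 0.000405 over the tested probes).

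Slc12a7, which encodes the potassium-chloride cotransporter KCC4, had log2 signals of 1.40 and 1.75 in stem cells, against 0.88 and 1.07 in non-stem cell epithelia. The groups did not overlap, and the difference of 0.60 ± 0.19 missed the threshold (adjusted p = 0.063). It passed in 5 alternatives, among them the one without stem cells replicate 1 (0.77, adjusted p = 0.014). Slc12a9, an orphan member that binds other cotransporters, had a log2 difference of -0.42 ± 0.16 (adjusted p = 0.097). Slc12a5, the gene for the neuronal potassium-chloride cotransporter KCC2, had 0.01 ± 0.36. Its groups overlapped and the 2 arrays of each group lay apart, at -1.06 and -0.17 in stem cells, against -0.30 and -0.95 in non-stem cell epithelia. The kidney cotransporter genes Slc12a1 and Slc12a3 were well above background on no array.

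The promoters of the 3 genes with the largest changes measured on all 4 arrays are shown as the 250 bases before the annotated start, from RefSeq on build GRCm38.p6. They are Slc12a4 at chr8:105966116-105966365 on the minus strand, Slc26a6 at chr9:108853793-108854042 on the plus strand and Slc12a8 at chr16:33517078-33517327 on the plus strand, the last being the first listed of 3 starts. Capitals mark matches on either strand to the TATA box TATAAA, the CCAAT box, the GC box GGGCGG, the E-box motif CAGCTG or the GATA motif AGATAA, and no 2 matches overlap.
Slc12a4: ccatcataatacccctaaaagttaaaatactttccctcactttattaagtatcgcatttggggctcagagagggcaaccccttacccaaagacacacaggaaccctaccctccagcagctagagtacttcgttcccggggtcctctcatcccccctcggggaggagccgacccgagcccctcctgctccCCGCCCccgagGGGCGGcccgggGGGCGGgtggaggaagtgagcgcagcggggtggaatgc
Slc26a6: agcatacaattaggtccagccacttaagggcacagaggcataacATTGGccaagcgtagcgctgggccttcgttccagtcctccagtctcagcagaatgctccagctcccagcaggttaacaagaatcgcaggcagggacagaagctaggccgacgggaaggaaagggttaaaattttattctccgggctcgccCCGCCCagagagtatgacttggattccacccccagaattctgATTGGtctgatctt
Slc12a8: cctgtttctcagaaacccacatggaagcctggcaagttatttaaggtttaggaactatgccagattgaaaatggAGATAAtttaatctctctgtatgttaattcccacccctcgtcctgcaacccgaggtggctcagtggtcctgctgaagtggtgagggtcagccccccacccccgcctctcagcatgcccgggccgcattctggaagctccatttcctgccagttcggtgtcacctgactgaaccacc

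The Slc12a4 window held 3 matches to the GC box, and the Slc26a6 window 1. Of all 32851 windows of this length, 32.7% held at least 1. The Slc26a6 window held 2 matches to CCAAT, found in 33.8% of windows, and the Slc12a8 window 1 match to the GATA motif, found in 9.99%. TATAAA and CAGCTG, found in 12.4% and 13.0% of all windows, had no match in the 3.

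Among Slc4 bicarbonate transporters, the exchanger genes Slc4a3 and Slc4a9 were higher in stem cells and Slc4a1 was lower, while 4 others did not pass. Slc4a3 encodes AE3, a chloride-bicarbonate exchanger best known from heart and brain. Log2 signals were 2.51 and 2.68 in stem cells, against 1.81 and 1.58 in non-stem cell epithelia, without overlap. Before scaling, the signals were 173 and 278 in stem cells, against 263 and 188 in non-stem cell epithelia, and these overlapped. After scaling, the difference was 0.90 ± 0.17, or 1.87-fold (adjusted p = 0.0149). A second Slc4a3 probe gave 0.02 ± 0.26, and the mean of both did not pass (0.46, adjusted p = 0.105). The call was also lost with normexp background correction (0.43, adjusted p = 0.056) and without non-stem cell epithelia replicate 1 (adjusted p = 0.058) or replicate 2 (adjusted p = 0.106). Slc4a9 encodes AE4, an exchanger that supports chloride uptake in mouse submandibular acinar cells. Its log2 signal was -0.18 and -0.28 in stem cells, against -0.88 and -1.11 in non-stem cell epithelia, which did not overlap. A second Slc4a9 probe, well above background on no array, gave a log2 difference of 0.75. Before scaling its signals were 2.2 and 2.2 in stem cells, against 2.7 and 2.4 in non-stem cell epithelia. The undetected probes of Slc24a1 and Slc26a3 also lay at 0.74 after scaling, so the second Slc4a9 probe does not bear on the call. Before scaling, the signals of the brightest probe were 26.8 and 35.7 in stem cells, against 40.6 and 29.1 in non-stem cell epithelia. After scaling, the difference of Slc4a9 by that probe was 0.77 ± 0.17, or 1.70-fold higher (adjusted p = 0.0215), while most acinar markers stood lower. It did not pass without non-stem cell epithelia replicate 1 (0.88, adjusted p = 0.069) or replicate 2 (0.65, adjusted p = 0.133), nor with normexp (0.33, adjusted p = 0.086).

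Slc4a2, the gene for the widespread basolateral exchanger AE2, had log2 signals of 2.68 and 2.61 in stem cells, against 2.79 and 2.94 in non-stem cell epithelia. The difference of -0.23 ± 0.16 did not pass (adjusted p = 0.31), but it did with normexp (-0.53, adjusted p = 0.0125). Slc4a11, known from the corneal endothelium, stood at 3.85 and 3.98 in stem cells, against 3.62 and 3.55 in non-stem cell epithelia (0.33 ± 0.15, adjusted p = 0.16). Groups did not overlap for either gene. Slc4a7, the gene for the sodium-bicarbonate cotransporter NBCn1, had a log2 difference of 0.38 ± 0.17 (adjusted p = 0.15) by its brightest probe and of 1.33 ± 0.38 (adjusted p = 0.051) by another. Their mean was past the threshold (0.85, adjusted p = 0.037).

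Slc4a4, the gene for the electrogenic sodium-bicarbonate cotransporter NBCe1, was read by a pair of overlapping probes that serve as a repeat measurement. They lie on the plus strand at chr5:89663826-89663885 and chr5:89663838-89663897 (mm9). They share 48 bases, in capitals.
A_55_P1959228: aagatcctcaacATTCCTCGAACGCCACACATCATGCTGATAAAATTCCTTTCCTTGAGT
A_55_P1967776: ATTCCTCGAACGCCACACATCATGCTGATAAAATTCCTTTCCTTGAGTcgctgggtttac

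The first gave 0.28 and 0.14 in stem cells, against 0.29 and 0.32 in non-stem cell epithelia, a log2 difference of -0.10 ± 0.15 (adjusted p = 0.66). The second gave -0.21 ± 0.15 (adjusted p = 0.35). The 2 estimates lay closer together than their SE. Slc4a5, Slc4a8 and Slc4a10, which encode other sodium-coupled bicarbonate transporters, were well above background on no array.

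Slc4a1 encodes AE1 or band 3, the chloride-bicarbonate exchanger of red blood cells, also used by acid-secreting kidney cells. Log2 signals were -3.68 and -2.23 in stem cells, neither of them well above background, against 1.24 and 1.48 in non-stem cell epithelia. On the scanner's background-corrected signal it was at least 9.87-fold lower in stem cells. With normexp the log2 difference was -1.47, smaller than this bound. For the bound, each stem cell array was given the probe's own signal or, where higher, the dimmest signal that counted as well above background there. Some probes brighter than that dimmest signal did not count as well above background, so the bound rests on this choice. The adjusted p = 0.00257 belongs to the measured signals and does not test the bound. Some markers of red blood cells moved with it. Of 13 on the array, 7 were tested, 5 were lower and 0 higher by the test. The other tested markers, Ermap and Hemgn, lay higher on both stem cell arrays without passing (0.48 ± 0.16 and 0.23 ± 0.17). The globin genes Hba-a1 and Hbb-b1 fell by 2.19 ± 0.18 and by 2.07 ± 0.15, and Alas2, which encodes the first enzyme of haem synthesis in red cells, fell by 1.83 ± 0.20. Rhag, Epb4.2, Ank1, Klf1 and Rhd, which define the lineage, were well above background on no array. The summed level of the list, in multiples of each array's 75th percentile, was 466 and 488 in stem cells, against 1348 and 1367 in non-stem cell epithelia. Their part in the Slc4a1 result was not tested.

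In the Slc9 family of sodium-hydrogen exchangers, the genes of the apical exchangers Slc9a2 and Slc9a3 were higher in stem cells. Those of the organelle exchangers Slc9a7 and Slc9a9 were lower, and 4 others did not pass. Slc9a3 encodes NHE3, which takes up sodium in kidney tubules, gut and salivary ducts. Its log2 signal was 7.00 and 7.20 in stem cells, against 6.39 and 6.12 in non-stem cell epithelia, without overlap. Before scaling, the signals were 3883 and 6363 in stem cells, against 6282 and 4388 in non-stem cell epithelia, and these overlapped. After scaling, the difference was 0.84 ± 0.18, or 1.79-fold (adjusted p = 0.0207). That probe carries an accession that the RefSeq table does not list, but a second probe with a RefSeq transcript gave a larger rise of 1.30 ± 0.24 (adjusted p = 0.017). The second Slc9a3 probe was far dimmer, at 0.77 and 0.15 in stem cells, against -0.87 and -0.81 in non-stem cell epithelia. Slc9a2 encodes NHE2, a related apical exchanger. Log2 signals were -0.69 and -1.27 in stem cells, against -2.07 and -2.03 in non-stem cell epithelia. The groups did not overlap, although the stem cell arrays lay apart, and the difference was 1.07 ± 0.23, or 2.10-fold (adjusted p = 0.0209). The probe was dim. Before scaling its signals were 18.8 and 17.9 in stem cells, against 17.8 and 15.4 in non-stem cell epithelia. Its scaled non-stem values lay near the dimmest signals that counted as well above background on those arrays (-2.53 and -2.49). Both calls were lost when a non-stem array was left out. For Slc9a3 the log2 difference was 0.98 without replicate 1 (adjusted p = 0.065) and 0.71 without replicate 2 (adjusted p = 0.131). For Slc9a2 it was 1.05 without replicate 1 (adjusted p = 0.111) and 1.09 without replicate 2 (adjusted p = 0.122). Slc9a3 also did not pass with normexp (0.36, adjusted p = 0.151), while Slc9a2 passed at 0.45 (adjusted p = 0.0305).

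Slc9a7 encodes NHE7 of the trans-Golgi network. Its log2 signal was -3.82 and -3.65 in stem cells, neither well above background, against -0.71 and -0.76 in non-stem cell epithelia. It was at least 2.94-fold lower in stem cells (adjusted p = 0.000324 for the measured signals). A second Slc9a7 probe was well above background on no array, and its groups overlapped (log2 difference -0.25). Slc9a9 encodes NHE9 of recycling and late endosomes. Log2 signals were -2.82 and -3.65 in stem cells, neither well above background, against -1.45 and -0.74 in non-stem cell epithelia, and it was at least 2.29-fold lower (adjusted p = 0.0102 for the measured signals). Without non-stem cell epithelia replicate 2 the call of Slc9a9 was lost (log2 -1.79, adjusted p = 0.080). With normexp the log2 difference was -0.32 for Slc9a7 and -0.14 for Slc9a9, and neither passed (adjusted p = 0.092 and 0.51). Both are smaller than the bounds, which hold for the scanner's background-corrected signal.

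Slc9a8, the gene for NHE8 of the Golgi and apical membranes, stood at 3.79 and 4.09 in stem cells, against 4.34 and 4.19 in non-stem cell epithelia. The groups did not overlap, and the difference of -0.33 ± 0.18 did not pass (adjusted p = 0.22), but it did with normexp (-0.75, adjusted p = 0.00904). Slc9a4, the gene for the basolateral stomach exchanger NHE4, was well above background on 1 stem cell array and both non-stem arrays (0.52 ± 0.16, adjusted p = 0.062). Slc9a5 was well above background on no array, nor was Slc9a10, a sperm exchanger gene that RefSeq now names Slc9c1.

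**Figure D2:**
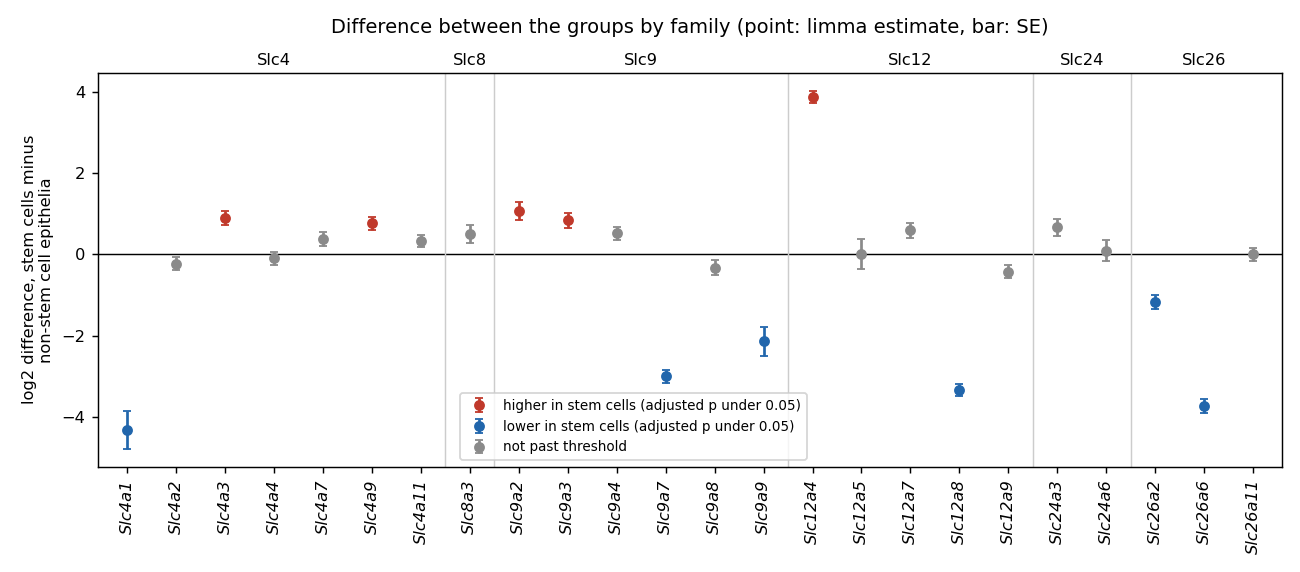
The plot gives the log2 difference of 24 of the 27 tested genes (y axis, stem cells minus non-stem cell epithelia, point with SE bar, 2 arrays per group), grouped by family, with called genes in red (higher) or blue (lower). The 4 changes farthest from 0, at 3.88 for Slc12a4 and at -3.33, -3.73 and -4.32 for Slc12a8, Slc26a6 and Slc4a1, lie in 3 families, and Slc4, Slc9 and Slc12 each hold calls in both directions; the values of Slc4a1, Slc9a7 and Slc9a9 rest on stem cell signals not well above background.

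No gene of the calcium exchangers passed the threshold, whether of the sodium-calcium family Slc8 or of the potassium-dependent family Slc24. Of 9 such genes on the array, 3 were tested, and at an unadjusted p under 0.05 Slc24a3 alone passed by limma. Slc24a3 encodes NCKX3, an exchanger of the plasma membrane. Log2 signals were 1.40 and 1.86 in stem cells, against 1.01 and 0.92 in non-stem cell epithelia, without overlap (0.67 ± 0.21, adjusted p = 0.059). It passed in 5 alternatives, among them the one without stem cells replicate 1 (0.90, adjusted p = 0.0044). Slc8a1, Slc8a2, Slc24a1, Slc24a2, Slc24a4 and Slc24a5 were well above background on no array. They include the heart exchanger gene Slc8a1 and Slc24a5, which acts in pigment cells.

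For the other calcium exchanger genes tested, Slc8a3 and Slc24a6, the probes gave estimates of opposite sign, and their sequences are shown for that reason. Slc8a3 encodes NCX3, known from brain and skeletal muscle. Slc24a6 encodes NCLX, the sodium-calcium exchanger of mitochondria, and RefSeq now names it Slc8b1. The brightest probe of Slc8a3 lies on the minus strand at chr12:82299156-82299215 (mm9), and its last 30 bases are a repeat of C and A, in capitals. The other lies at chr12:82317709-82317768. The brightest probe of Slc24a6 lies on the plus strand at chr5:120983969-120984028, and the first 30 bases are given with T in capitals. The other lies at chr5:120983007-120983066.
A_55_P1982747: CACACACACACACACACACACACACACACA
A_55_P2160528: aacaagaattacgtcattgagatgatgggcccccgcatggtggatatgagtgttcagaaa
A_55_P1983968: TTgTTTgTTTTTTgTTTTTgTTTTTTgTTg
A_55_P2084860: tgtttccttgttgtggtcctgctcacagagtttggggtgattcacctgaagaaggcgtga

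The repeat of 30 bases in the Slc8a3 probe compares with at most 6 bases in the other probes of these genes, and 31 of the 55681 probes on the array, or 0.0557%, have a run at least as long. This probe gave 4.46 and 3.90 in stem cells, against 3.70 and 3.66 in non-stem cell epithelia (0.50 ± 0.22, adjusted p = 0.14). The other Slc8a3 probe, which was above background on both non-stem arrays and on neither stem cell array, gave -0.40 ± 0.28 (adjusted p = 0.32). The Slc24a6 probe holds 34 T in 60 bases, and 40 probes of the array, or 0.0718%, hold at least as many. It gave -0.45 and -1.15 in stem cells, against -0.87 and -0.92 in non-stem cell epithelia (0.09 ± 0.26, adjusted p = 0.80). The other Slc24a6 probe, above background on 1 stem cell array and both non-stem arrays, fell by 1.30 ± 0.27 (adjusted p = 0.022). The call for Slc24a6 therefore depended on the probe, and neither Slc8a3 probe gave a direction past the threshold.

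Across the 47 genes there were 69 probes, and 11 genes had over 1 tested probe. The probes of 3 genes, Slc8a3, Slc9a8 and Slc24a6, differed in sign, and of these the second Slc24a6 probe alone passed. For Slc12a8, Slc26a6 and Slc9a3 every tested probe was past the threshold in 1 direction.

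**Figure D3:**
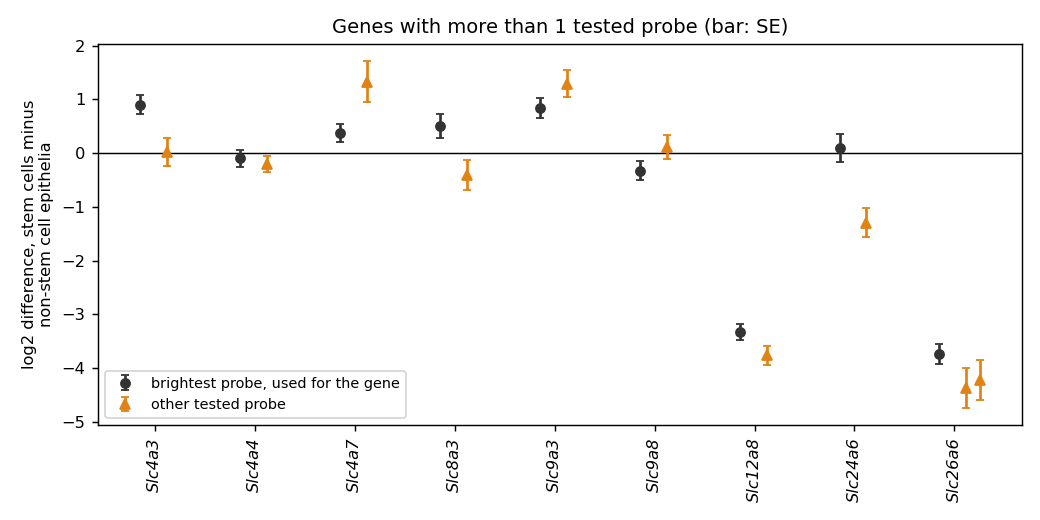
The plot gives the log2 difference (y axis, stem cells minus non-stem cell epithelia, with SE bar, 2 arrays per group) of each tested probe for 9 of the 11 genes with over 1, circles for the brightest probe and triangles for the others. The probes of Slc12a8 lie at -3.33 and -3.77 and those of Slc26a6 between -4.37 and -3.73, while the Slc24a6 probes lie at 0.09 and -1.30.

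Genes that act on these transporters were described from 3 lists, in which 3 of 9, 5 of 10 and 5 of 11 tested genes were called, beside 31% over all genes. Nothing particular to these lists is read from those counts. Of 9 tested kinases of the WNK pathway and their partners, which set the activity of Slc12 cotransporters, 1 rose, 2 fell and 6 did not pass, with a median log2 difference of 0.00. Wnk1 fell by 0.80 ± 0.17 (adjusted p = 0.0192) and Oxsr1, a kinase that phosphorylates the cotransporters, fell by 1.04 ± 0.22 (adjusted p = 0.0198). Nedd4l, a ubiquitin ligase that removes ion transporters from the membrane, rose by 0.87 ± 0.18 (adjusted p = 0.0188). Of 10 tested scaffolds and cofactors of exchangers, 4 rose and 1 fell (median 0.00). The rises included the membrane linkers Msn (1.66 ± 0.16), Ezr (0.81 ± 0.18) and Rdx (0.74 ± 0.16). Slc9a3r2, the gene for the NHERF2 scaffold of NHE3, fell by 1.61 ± 0.17 (adjusted p = 0.00228) where Slc9a3 itself rose. Of 11 tested carbonic anhydrases, the enzymes that supply bicarbonate and protons, 2 rose and 3 fell (median -0.19). Car13 rose by 1.17 ± 0.19 and Car8, a relative without the catalytic activity, by 0.97 ± 0.19. Car9 was 3.74-fold lower in stem cells as measured, and the bound used for Slc4a1 gave the same value. By that bound the mitochondrial Car5b was at least 1.53-fold lower. Both had stem cell signals not well above background.

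Among the 14 acinar markers, 8 were lower in stem cells, 0 were higher and 6 did not pass. The acinar genes Cldn10, Muc19 and Aqp5 fell, with log2 differences of -3.72 ± 0.15, -3.89 ± 0.16 and -3.19 ± 0.16, while Ano1 and Prol1 did not pass (0.14 ± 0.15 and 0.02 ± 0.15). The summed level of the 14 acinar markers was 8883 and 8382 in stem cells, against 13710 and 14440 in non-stem cell epithelia, in multiples of each array's 75th percentile. Dcpp1, Dcpp2 and Dcpp3 were the brightest of these markers in both groups, so the sum mainly follows them. Dcpp1 fell by 1.24 ± 0.16, while Dcpp2 and Dcpp3 did not pass (-0.45 ± 0.16 and -0.07 ± 0.16). The summed level of the duct list was 2310 and 2272 in stem cells, against 667 and 659 in non-stem cell epithelia. The part of these markers in the transporter results was likewise not tested. In RNA from many cells, fewer cells of a type and less RNA per cell cannot be told apart.

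Slc12a4, Slc12a8 and Slc26a6 were past the threshold in the same direction under every alternative run. Slc4a1 was too where it was tested, but it was tested only through the non-stem arrays, and the filter on all 4 arrays left it out. The other 7 calls were each lost in at least 1, and none of the 11 changed direction under these alternatives, which do not include scaling to the spike-ins.

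**Figure D4:**
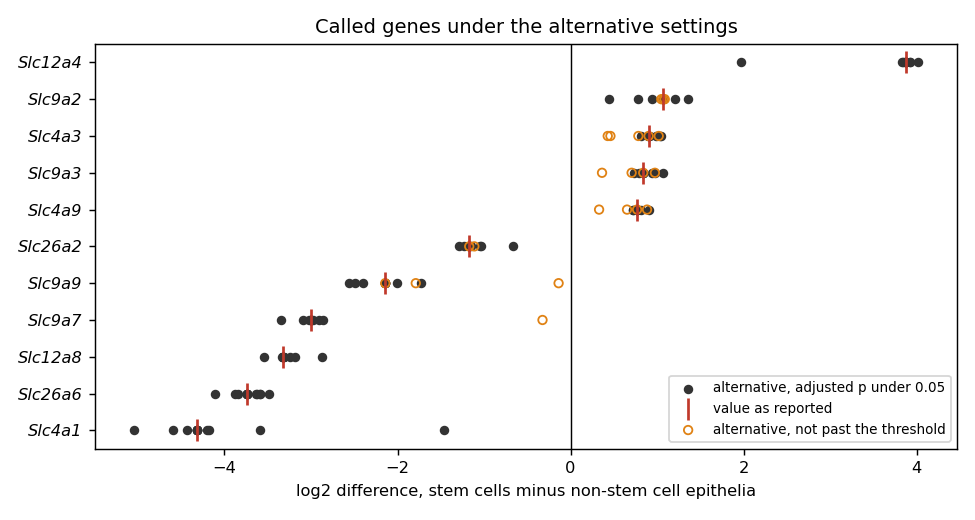
The plot gives the log2 difference (x axis, stem cells minus non-stem cell epithelia) of the 11 called genes under each alternative setting, filled where the adjusted p was under 0.05 and open where it was not, with a red bar at the value as reported. Slc12a4 ranged from 1.98 to 4.02, Slc26a6 from -4.11 to -3.49, Slc12a8 from -3.55 to -2.88 and Slc4a1 from -5.04 to -1.47, and Slc9a9 and Slc9a7 came closest to 0 at -0.14 and -0.32.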

How the data were processed

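Spot intensity on 4 one-colour Agilent arrays was the measurement. Per the file headers, the deposited intensity values were made by the authors with Feature Extraction 10.7.3.1 on a design with mm9 coordinates, while the submitters' processing notes name version 9.1. After outlier and control spots were dropped, log2 of the background-corrected signal was averaged over repeat spots and set relative to the array's own 75th percentile. A gene was tested where its brightest probe was well above background on at least 2 arrays. Groups came from the sample titles and were compared with limma 3.58.1 in R 4.3.3 (lmFit, eBayes, two-sided, 5.55 degrees of freedom, no covariate), adjusted over 17305 genes at 0.05. The number of arrays limits the precision. All arrays share 1 slide. Named genes were the members, some of which are counted but not reported by name here, plus up to 4 genes of smallest p per regulator list. Members, lists and tests were chosen with earlier results of these data known. Of 69 probes, 67 accessions matched RefSeq (GRCm38.p6), and 2 genes have a newer symbol there.

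The deposited log2 values of the authors' series table were an alternative. Array differences in it correlated with those of the scanner values at 1, which gives the direction but not the scale. For scale, the log2 difference of Slc12a4 was 3.878 in it, against 3.879 as reported. That of Slc4a1 was -4.319, against -4.318. The centring of each probe is not known. Column medians were -0.28 and -0.55 for stem cells, against -0.83 and -0.76 for non-stem cell epithelia. Other alternatives were quantile normalization, normexp with an offset of 50, a percentile over detected probes, testing every gene, testing those above background on all 4 arrays, a prior that follows intensity, the replicate number as a block, averaging the probes of each gene and leaving out each array. In simulated data for this comparison (17305 genes, 200 of them changed), limma called 0 of 50 genes that differed by 0.5 in log2. It called 3 of 50 at a difference of 1, 39 of 50 at 2 and 46 of 50 at 4. With so few changed genes the adjustment was stricter than in the data, where 31% of genes were called. These counts therefore do not give the sensitivity of the comparison.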

Additional observations from a re-analysis of the deposited data

Results flagged for a closer look

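A difference appeared in spots outside the comparison, the 10 spike-in controls added to each RNA. Relative to each array's 75th percentile their median log2 difference, stem cells minus non-stem cell epithelia, was 2.25 (range 0.64 to 2.59), and for 10 of 10 the groups did not overlap. On the unshifted log2 scale the median was 1.33. The control at 0.64 lay on every array below the dimmest signal that counted as well above background there. On the unshifted scale it was lower in stem cells, at -0.28. Among the called genes, the rise of Slc12a4 by 3.88 was larger than that median, and the rises of Slc4a3, Slc4a9, Slc9a2 and Slc9a3 were smaller. Set against the spike-in median, Slc12a4 would stand at 1.63, while Slc4a3, Slc4a9, Slc9a2 and Slc9a3 would turn to lower in stem cells, at -1.34, -1.48, -1.18 and -1.41. The median of all genes tested would stand at -2.26. The part of scaling in these results was not tested.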

How the results depend on the processing

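The number of genes of these families past the threshold was 11 as reported and 5 without a filter, where 36160 genes share the adjustment. The calls lost were Slc4a3, Slc4a9, Slc9a2, Slc9a3, Slc9a9 and Slc26a2, with adjusted p between 0.0654 and 0.118. The number was 5 to 13 when 1 array was left out (7 without non-stem replicate 1, 5 without non-stem replicate 2, 13 and 12 without stem cells replicate 1 and 2). Higher calls were 5 as reported, 2 with normexp, 9 with the percentile over detected probes, 1 without a filter, 9 with the intensity trend and 1 to 7 when 1 array was left out. Lower calls were 6, and 3 with the filter on all 4 arrays, which removes Slc4a1, Slc9a7 and Slc9a9; they were 4 to 6 when 1 array was left out. Over all genes there were 5360 calls, 1619 without a filter, and 1621 to 6449 when 1 array was left out. Higher calls over all genes were 2453, 1596 with normexp, 850 without a filter and 700 to 2886 when 1 array was left out. Lower calls were 2907, 4730 with normexp, 769 without a filter and 921 to 3563. Of all calls 45.8% were higher as reported, 25.2% with normexp and 59.4% with the percentile over detected probes, which raised the median of all genes by 0.14. The causes were not tested.

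The genes named here that changed sign were all short of the threshold as reported. Slc4a4 became 0.043 with the percentile over detected probes. With normexp Slc4a7 became -0.041, Slc4a11 -0.10 and Slc26a11 -0.23. Slc12a5 became -0.07 with quantile normalization, and Slc24a6 became -0.60 with the mean of its probes (adjusted p = 0.031). When 1 array was left out, Slc12a5 ranged from -0.44 to 0.45, Slc24a6 from -0.26 to 0.44 and Slc26a11 from -0.094 to 0.10.

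Deviations of same-numbered arrays of the 2 groups correlated at -0.103, so the numbers do not show a pairing. With the replicate number as a block, 11 of these genes passed (5 higher, 6 lower) and 5340 over all genes. With crossed numbers, an alternative chosen after seeing the data, 11 and 4558 passed.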
